A study of Zea mays with 18 samples.

Results

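The cytosolic ribosomal protein genes of maize roots were described as a set and singly across 6 groups of libraries. The members are the genes whose protein description in the deposited table contains "40S ribosomal protein" or "60S ribosomal protein", and no expression value entered this choice. They number 465 of 47334 genes. RNA was sequenced from whole roots of zmnrt1.1b, zmnlp3.1 and wild-type (WT) seedlings, each under KNO3 and under KCl, with 3 libraries in each group and 18 in all. The zmnrt1.1b plants carry a CRISPR/Cas9 allele of ZmNRT1.1B, a plasma membrane NO3- transporter, and the zmnlp3.1 plants an allele of ZmNLP3.1, a NIN-like transcription factor of NO3- signalling. Both mutants were made in the inbred line ND101. The sample labels call both genotypes knockdowns, whereas the methods describe loss-of-function mutants, and the sequenced line of each mutant is not given in the sources used here. Seedlings of all 6 groups were raised for 10 days with full nutrients, kept for 4 days without N, and then supplied for 2 h with KNO3 or with KCl, each at 5 mM. Because both salts bring K+, the difference KNO3 minus KCl within a genotype is taken as its NO3- response.

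A cytosolic ribosome consists of a small 40S subunit, which reads the mRNA, and a large 60S subunit, which joins the amino acids. Each subunit is built from ribosomal RNA and many different proteins, nearly all of them needed in equal numbers. Plants encode most of these proteins in small families of similar genes, and the families are usually expressed together, at the highest level in growing and dividing tissue such as the root tip. Ribosome production is among the largest costs of a growing cell, and in many organisms it follows the supply of nutrients.

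The table gives FPKM, fragment numbers corrected for gene length and library depth. Values were tested with limma on log2(FPKM + 0.1) for genes with at least 1 FPKM in at least 3 libraries, which 26011 genes met. A gene is said to have risen or fallen where its Benjamini-Hochberg adjusted p, taken over all of these genes, was under 0.05. Of the 465 members, 288 passed the minimum, 88 were at 0 in every library and 89 lay below the minimum, none of them above a mean of 0.599 FPKM. The largest share of the untested members was named 40S ribosomal protein S4, a name given to 61 genes of which 13 were tested. Most names bear out the label. Of the tested members, 280 carry a plain cytosolic name, 3 are named mitochondrial, and 5 have another leading name, among them P0 of the ribosomal stalk, 2 homologs of the assembly factor mRNA turnover protein 4, a pentatricopeptide repeat protein and a putative callose synthase. How reads that fit several near-identical genes were counted is not given in the sources used here, so the division of reads within a family is uncertain.

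Libraries held 16955904 to 19116969 recovered reads. The depth behind the FPKM was 0.925 to 1.11 times these reads. It was 0.925 to 0.960 times in WT and 1.03 to 1.05 times in zmnlp3.1, both under KNO3. Its part in the genotype comparisons was not tested singly, and 1 alternative given at the end (voom) used the recovered reads. The labels give replicate numbers but do not say whether the replicates were separate plants or pools, so p-values measure the spread between these libraries. Photosynthesis genes that mark green tissue were low, with 15.6 to 72.6 FPKM summed over 38 genes in the 18 libraries. Their sums differed between groups, with 25.1 to 29.6 FPKM in zmnrt1.1b under KNO3 and 67.0 to 72.6 FPKM under KCl, and with 44.6 to 49.4 FPKM in zmnlp3.1 under KNO3 and 15.6 to 19.4 FPKM under KCl. Casparian strip membrane proteins, which mark the root endodermis, were detected, and their 6 genes summed to 19.8 to 85.0 FPKM, lowest in zmnrt1.1b under KNO3 (19.8 to 43.8 FPKM, against 52.5 to 85.0 FPKM in WT under KNO3). The part of these markers in the results was not tested.

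The ribosomal protein genes were among the abundant transcripts of these roots. The median of the 288 tested members was 74.6 FPKM, averaged over 18 libraries, against 7.93 FPKM for all tested genes. The highest was a gene of L27a-3, a large-subunit protein (gene_Zm00001d022124, B73 RefGen_v4 chromosome 7, 170836044 to 170836481), with a mean of 764 FPKM. A gene of S16, a protein of the head of the small subunit, followed with 624 FPKM (gene_Zm00001d044664), and a gene of L26-1 with 596 FPKM (gene_Zm00001d008594). S17-3 had 432 FPKM (gene_Zm00001d045000) and S29 had 391 FPKM (Zm00001d048787). For 4 of these 5 genes the annotated length equals the distance from start to end, so the gene model is a single block with no intron. Such models made up 20 of the 288 tested members. The lengths of all 20 are multiples of 3, so they are coding lengths without UTRs, and their FPKM are not strictly comparable with those of models that include UTRs.

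Genes that share a name differed widely in level. Of the L12 genes, which encode a protein at the base of the stalk, the highest averaged 265 FPKM (gene_Zm00001d051543) and the lowest 0.719 FPKM (Zm00001d043268, 4 to 16 reads per library). The extremes of S9-2 were 344 FPKM (gene_Zm00001d041760) and 1.03 FPKM (Zm00001d006923), and those of S4 were 284 FPKM (gene_Zm00001d034790) and 1.70 FPKM (a gene assembled from the reads, without a reference ID). In each of these 3 names, abundant genes thus stood beside a gene with few reads.

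Summed over all members, the FPKM was 35665, 40861 and 32259 in the 3 zmnrt1.1b libraries under KNO3, against 23356, 24962 and 24114 under KCl. Every zmnrt1.1b library under KNO3 thus lay above every one under KCl. In zmnlp3.1, the sums were 27984, 36360 and 39226 under KNO3 and 26488, 27315 and 30882 under KCl. The lowest KNO3 library of zmnlp3.1 lay within its KCl range, and the other two lay above it. In WT, the sums were 25774, 23610 and 34277 under KNO3 and 31497, 26062 and 27201 under KCl. The WT ranges overlapped, with replicate 4 of WT KNO3 far above the rest of its group. The library numbered 4 was also the highest of its group in zmnrt1.1b under KNO3 (40861) and in zmnlp3.1 under KNO3 (39226) and KCl (30882). In zmnrt1.1b under KCl it was not (24114), and WT under KCl has no library of that number. Whether libraries numbered 4 share a factor was not tested. As a share of all FPKM, the members took 6.45% ± 0.943 in zmnrt1.1b under KNO3 and 4.33% ± 0.236 under KCl (SD, n = 3 each). In zmnlp3.1 the share was 6.66% ± 1.07 under KNO3 and 5.51% ± 0.625 under KCl, and in WT it was 4.69% ± 0.909 under KNO3 and 4.97% ± 0.393 under KCl. The balance between the subunits hardly moved, since the ratio of the 40S sum to the 60S sum stayed between 0.735 and 0.798 in the 18 libraries.

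**Figure D1:**
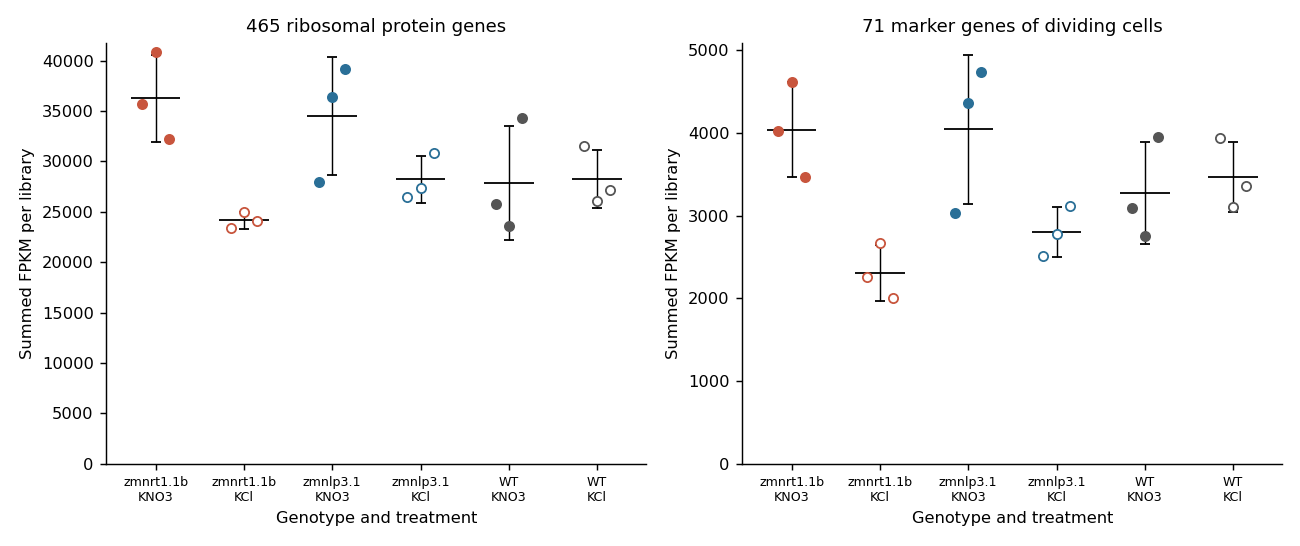
Summed FPKM per library of the 465 ribosomal protein genes (left) and of 71 marker genes of dividing cells (right), by genotype and treatment. Points are libraries, filled for KNO3 and open for KCl, with the group mean and SD; the zmnrt1.1b libraries under KNO3 (32259 to 40861 for the ribosomal protein genes) all lie above those under KCl (23356 to 24962), and the same library is highest on both sides in all 6 groups.

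Between the treatments of a genotype, markers of dividing cells moved with the ribosomal protein genes. These are 71 genes described as A- and B-type cyclins, histones H3.2 and H4, or the replication clamp PCNA. They summed to 3468 to 4622 FPKM in zmnrt1.1b under KNO3 and to 1999 to 2669 FPKM under KCl. The range was 3030 to 4744 FPKM in zmnlp3.1 under KNO3 and 2517 to 3118 FPKM under KCl. In WT it was 2756 to 3957 FPKM under KNO3 and 3111 to 3938 FPKM under KCl. Within the groups, the 3 libraries stood in the same order by both sums in 5 of 6 groups. In each library, 13 to 16 of the 71 markers were at 0. In RNA from whole roots, fewer cells of a type and less RNA per cell cannot be told apart, and the part of the markers in the results below was not tested.

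In zmnrt1.1b, 167 of the 288 tested members rose under KNO3 and 2 fell. Over all tested genes, 6.81% rose and 8.35% fell. The median log2 difference of the members was 0.56, against -0.03 for all tested genes, and the quartiles of the members were 0.45 and 0.65. Most increases were thus small. Those of the 167 called genes ran from 0.41 to 1.59, the lower end being set by the threshold, and 2 exceeded 1, as 2.03% of all tested genes did. Over all 288 members the differences ran from -2.67 to 1.59. In 239 members, all 3 KNO3 libraries lay above all 3 KCl libraries, which held for 15.7% of all tested genes. Members of a library shifted together, with an SD of 0.18 between libraries of a group for their median deviation. Counts of members, here and below, are thus not counts of independent observations. Of the 52 tested markers of dividing cells, 31 rose and none fell, with a median of 0.91. The median of the members stayed between 0.45 and 0.63 when any library was left out. The number of calls was less stable, with 45 without KNO3 replicate 4, 47 without KCl replicate 2, 101 without KCl replicate 3 and 102 without KCl replicate 4, and 55 without all libraries numbered 4, a setting chosen after seeing the data.

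**Figure D2:**
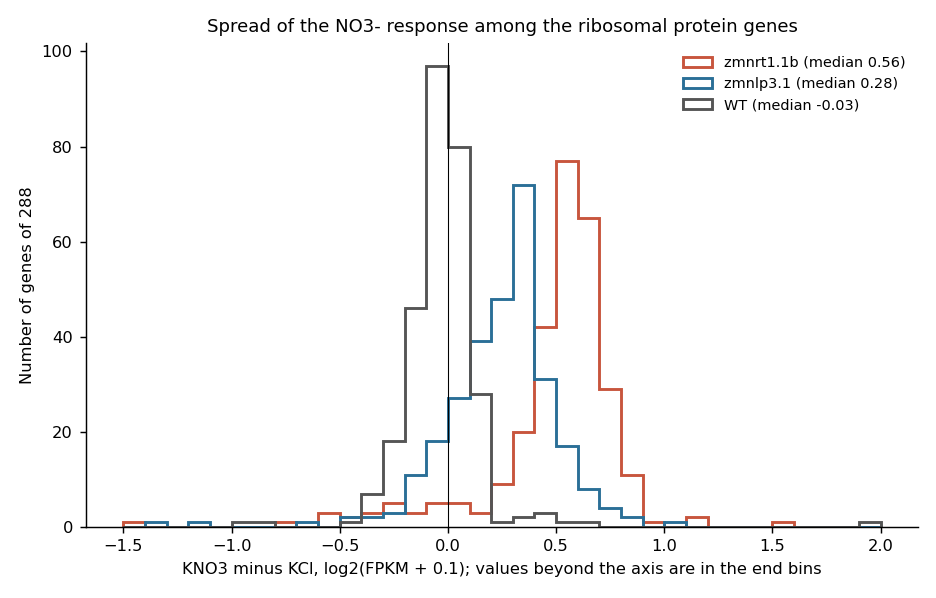
Number of ribosomal protein genes by their KNO3 minus KCl difference on the log2(FPKM + 0.1) scale, in bins of 0.1, for zmnrt1.1b, zmnlp3.1 and WT. The zmnrt1.1b genes centre on 0.56, the zmnlp3.1 genes on 0.28 and the WT genes on -0.03.

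The largest increase in zmnrt1.1b was that of an L29-2 gene (Zm00001d009117, chromosome 8, 37517954 to 37519823), which encodes a small protein of the large subunit. It had 17.8, 17.5 and 13.6 FPKM under KNO3 and 4.80, 6.44 and 4.83 FPKM under KCl. The KNO3 libraries were all above the KCl libraries, and the log2 difference was 1.59 (SE 0.24, adjusted p = 0.000519). An L5-1 gene followed (Zm00001d027512). L5 carries the 5S ribosomal RNA into the large subunit. Its levels were 29.6, 29.7 and 19.7 FPKM under KNO3 and 9.60, 12.98 and 13.7 FPKM under KCl, without overlap, and it rose by 1.11 (SE 0.25, adjusted p = 0.00782).

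A gene of L10a, the protein of the mobile L1 stalk, had 73.4, 86.2 and 63.2 FPKM in zmnrt1.1b under KNO3 and 33.1, 39.9 and 38.2 FPKM under KCl (Zm00001d042772). It rose by 0.99 (SE 0.18, adjusted p = 0.00243). A gene of L36a had 161, 185 and 165 FPKM under KNO3 and 90.3, 99.1 and 93.3 FPKM under KCl (gene_Zm00001d021652), and rose by 0.85 (SE 0.17, adjusted p = 0.00358). Both genes kept the KNO3 libraries apart from the KCl libraries. Of the 5 most abundant members, those of L27a-3, S16, L26-1 and S17-3 rose in zmnrt1.1b, whereas that of S29 differed by 0.34 with an adjusted p of 0.146. The L27a-3 gene had 1111, 1003 and 776 FPKM under KNO3 and 563, 643 and 647 FPKM under KCl.

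In zmnlp3.1, 26 members rose under KNO3 and 1 fell, against 6.88% and 7.14% of all tested genes. The count of increases was thus near the background. The median of the members was 0.28 (0.01 for all tested genes), and 249 of 288 had a positive difference, against 51.2% of all tested genes. At an unadjusted p under 0.05, 95 members were higher, against 14.7% of all tested genes. Of the dividing-cell markers, 18 of 52 rose and none fell, with a median of 0.50. The count of member calls depended on single libraries: it was 3 without KNO3 replicate 4, 16 without KNO3 replicate 3, 53 without KNO3 replicate 2, 4 without KCl replicate 1 and 10 without KCl replicate 3. Without all libraries numbered 4 it was 12. The median ranged between 0.19 and 0.41 when a library was left out.

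The largest increase that passed in zmnlp3.1 was that of an L22-2 gene (gene_Zm00001d007154, chromosome 2, 223382570 to 223383942), with 201, 167 and 219 FPKM under KNO3 and 102, 107 and 116 FPKM under KCl. The groups did not overlap, and the difference was 0.85 (SE 0.18, adjusted p = 0.00613). The L10a gene Zm00001d042772, named above, had 78.4, 82.7 and 108 FPKM under KNO3 and 48.2, 56.7 and 52.8 FPKM under KCl, and rose by 0.76 (SE 0.18, adjusted p = 0.0125). A gene of L34 rose by 0.71 (gene_Zm00001d020450, SE 0.17, adjusted p = 0.0142). An S16 gene rose by 0.69 (gene_Zm00001d023293, SE 0.22, adjusted p = 0.0454), although its position overlaps another gene and it lost the call in 14 of 26 alternative settings. A gene of S10-1 had 69.1, 66.6 and 80.4 FPKM under KNO3 and 43.9, 45.9 and 44.4 FPKM under KCl (Zm00001d025413). Its increase of 0.68 had the smallest adjusted p of the members in zmnlp3.1 (SE 0.13, adjusted p = 0.00388).

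The responses of the mutants come from separate libraries, but the fit gives each gene 1 estimate of spread from all 18 libraries. A gene with a small spread is thus called more easily in both, and the lists are not independent. Of the 167 genes that rose in zmnrt1.1b and the 26 that rose in zmnlp3.1, 19 were shared, which is 11.4% of the zmnrt1.1b list and 73.1% of the zmnlp3.1 list. Of all 288 tested members, 58.0% rose in zmnrt1.1b. The 19 genes belong to 15 families, with 9 genes of the 40S and 10 of the 60S subunit, and their means lay between 20.8 and 218 FPKM. Among them were 3 genes of L3, which reaches towards the peptidyl transferase centre, and genes of S27a and L40, the ribosomal proteins made as fusions with ubiquitin. The S27a gene rose by 0.66 in zmnrt1.1b (Zm00001d009161, adjusted p = 0.00649) and by 0.52 in zmnlp3.1 (adjusted p = 0.0236). In WT, the differences of the 19 genes lay between -0.08 and 0.17.

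In WT, 1 member rose under KNO3 and 1 fell, whereas 6.43% of all tested genes rose and 6.42% fell. The median of the members was -0.03 (0.00 for all tested genes), and their quartiles were -0.10 and 0.04. The SE of a member had a median of 0.18. The smallest increase that was called was 0.41 in zmnrt1.1b and 0.37 in zmnlp3.1. Differences of that size, and larger ones in genes with a wide spread, could thus have been missed in single genes of WT. The absence of a call does not show that a gene did not respond. At an unadjusted p under 0.05, 3 members were higher and 4 lower, against 12.3% and 12.6% of all tested genes. Of the dividing-cell markers, 1 rose and 2 fell of 52 in WT, with a median of -0.05.

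The gene that fell in WT is a weakly expressed gene of L26-1 (Zm00001d049904, chromosome 4, 51553890 to 51554381), a protein that sits near the mouth of the exit tunnel of the large subunit. Its mean was 12.1 FPKM and its gene model is again a single block. It had 4.73, 6.89 and 6.86 FPKM in WT under KNO3 and 12.1, 10.8 and 10.8 FPKM under KCl, a difference of -0.87 (SE 0.20, adjusted p = 0.00901). In zmnrt1.1b it had 17.7, 20.1 and 13.5 FPKM under KNO3 and 7.11, 9.90 and 10.7 FPKM under KCl, and rose by 0.88 (SE 0.20, adjusted p = 0.00986). In zmnlp3.1 it had 13.2, 16.9 and 17.5 FPKM under KNO3 and 13.8, 15.2 and 9.90 FPKM under KCl, groups that overlapped (difference 0.30, adjusted p = 0.353). The fall in WT lost its call in 1 of 26 alternative settings.

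The gene that rose in WT is an S4 gene with an erratic level (Zm00001d036575). It had 7.46, 0.624 and 4.0 FPKM in WT under KNO3 and 0.0653, 0 and 0 FPKM under KCl (adjusted p = 0.0163). In zmnrt1.1b it ranged from 0.204 to 0.769 FPKM under KNO3 and from 0.423 to 26.8 FPKM under KCl. In zmnlp3.1 the ranges were 0.528 to 5.98 FPKM and 2.38 to 8.60 FPKM. Since the WT KCl libraries hold almost no reads on this gene, the size of the fitted difference depends on the added 0.1 and no fold is given. The WT call was lost in 4 of 18 settings that left out 1 library and in 2 of 7 others.

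**Figure D3:**
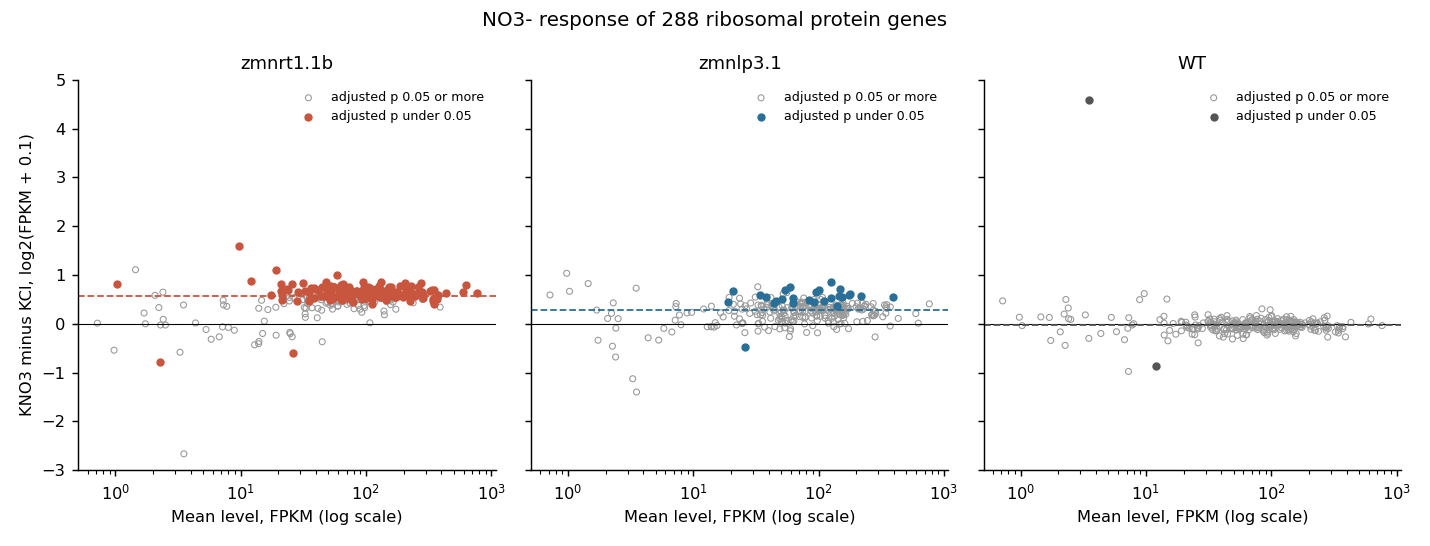
KNO3 minus KCl difference of the 288 tested ribosomal protein genes on the log2(FPKM + 0.1) scale against their mean FPKM (log axis), for zmnrt1.1b, zmnlp3.1 and WT. Filled points have an adjusted p under 0.05, and the dashed line is the median of the genes (0.56, 0.28 and -0.03); the points of zmnrt1.1b form a narrow band above 0 from about 20 FPKM upwards.

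The response in zmnrt1.1b was spread over both subunits and nearly all families. Of the tested 40S genes, 67 of 121 rose, with a median of 0.55, and of the 60S genes, 99 of 162 rose, with a median of 0.58 (mitochondrial names included). The cytosolic names fall into 76 families with tested genes. In 72 families at least 1 gene rose, and in 22 every tested gene did. The 4 families without a call were L31, L36, L9 and S28, with medians of 0.51, 0.49, 0.30 and 0.30. The family median was positive in 75 of 76 families in zmnrt1.1b, in 74 in zmnlp3.1 and in 26 in WT.

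Families picked by role had zmnrt1.1b medians from 0.50 to 0.84, and families not listed here can lie lower, such as L10 with 0.30 (2 genes). L10a of the L1 stalk had 0.84 (3 genes) and L12 at the base of the other stalk 0.53 (6 genes). L5 and L11, which accompany the 5S ribosomal RNA, had 0.75 (3 genes) and 0.50 (5 genes). L39, which lines the exit tunnel, had 0.65 (4 genes) and L3 had 0.59, with all 5 of its genes rising. In the small subunit, S3 at the entry of the mRNA channel had 0.51 (4 genes), S5 had 0.69 (2 genes), SA had 0.55 (5 genes) and the single S27a gene 0.66. Families at the low end were L18a with 0.05 (9 genes) and S4 with -0.13 (13 genes), both of which are described below.

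**Figure D4:**
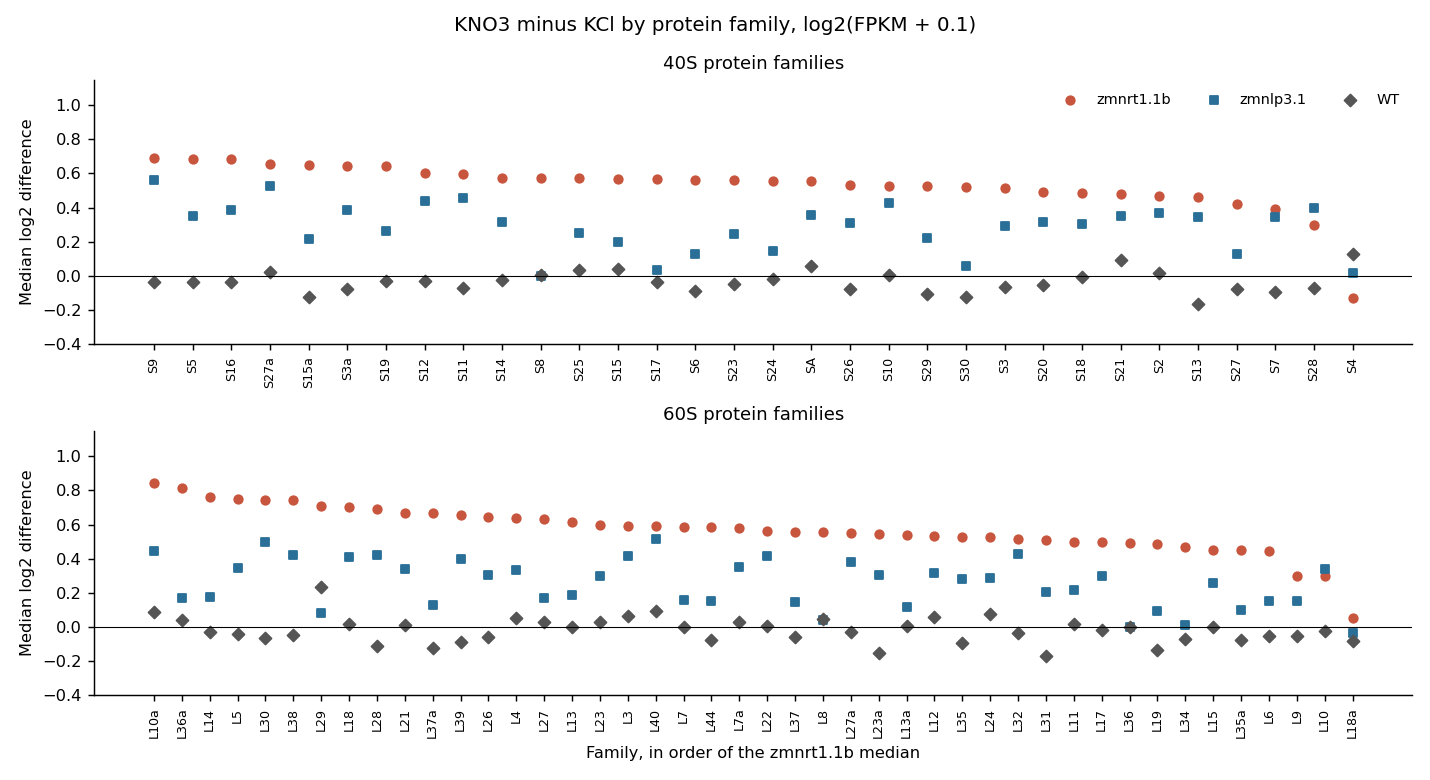
Median KNO3 minus KCl difference, log2(FPKM + 0.1), of each of the 76 ribosomal protein families in zmnrt1.1b, zmnlp3.1 and WT, for the 40S (top) and 60S (bottom) subunit in order of the zmnrt1.1b value. The zmnrt1.1b median is positive in 75 families, and L18a (0.05) and S4 (-0.13) stand at the low ends.

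The L18a family includes 3 genes named L18a-like. Their median response was -0.32 in zmnrt1.1b, whereas that of the 6 other genes was 0.40. An L18a-like gene (gene_Zm00001d009578, chromosome 8, 71548476 to 71550482) had 24.1, 19.5 and 22.9 FPKM in zmnrt1.1b under KNO3 and 38.9, 35.1 and 27.3 FPKM under KCl, without overlap. It fell by 0.60 (adjusted p = 0.0111), and in zmnlp3.1, with 16.3, 17.4 and 13.2 FPKM under KNO3 and 23.7, 21.96 and 19.6 FPKM under KCl, it fell by 0.48 (adjusted p = 0.0342). The zmnrt1.1b call was lost in 2 of 18 settings that left out 1 library, and the zmnlp3.1 call in 4. Each was also lost in 1 of 7 other alternatives. In WT the difference was -0.39 (29.5, 28.2 and 24.3 FPKM against 36.5, 34.1 and 37.0 FPKM under KCl, adjusted p = 0.0842). It was also lower in zmnlp3.1 than in WT, with a log2 difference of -0.81 under KNO3 (adjusted p = 0.000646) and of -0.72 under KCl (adjusted p = 0.00491). The other member that fell in zmnrt1.1b, by 0.79 (adjusted p = 0.0157), is not a ribosomal protein by its leading name but the pentatricopeptide repeat protein (Zm00001d003202), with a mean of 2.26 FPKM.

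Of the 13 tested S4 genes, gene_Zm00001d034790 and gene_Zm00001d012878 averaged 284 and 156 FPKM, and the other 11 lay between 1.70 and 24.9 FPKM. S4 had 2 genes that rose in zmnrt1.1b. The abundant gene_Zm00001d034790 had 380, 394 and 305 FPKM under KNO3 and 218, 245 and 255 FPKM under KCl, and rose by 0.58 (SE 0.16, adjusted p = 0.0238). The median of -0.13 thus rests on the weakly expressed genes of that name.

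Calls were more frequent among abundant members. Among the members with a mean of 100 FPKM or more, 91 of 113 rose in zmnrt1.1b (median 0.60). Between 20 and 100 FPKM, 71 of 135 rose (median 0.55), and under 20 FPKM 5 of 40 did (median 0.03). For comparison, 1032 other genes that share the middle range of the members' length (812.5 to 1706 bp) and of their level (35.7 to 143 FPKM) had a median of -0.06 in zmnrt1.1b, and 10.5% of them rose. The 12 tested members that overlap another gene did not set the counts, since 163 of the 276 others rose.

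Under KCl, the levels of most members in zmnrt1.1b lay below those in WT, but none of these differences passed the test. The median log2 difference of zmnrt1.1b minus WT was -0.22, and 262 of 288 differences were not positive. The zmnrt1.1b libraries lay below the WT libraries without overlap in 147 members, against 13.1% of all tested genes. As the members of a library shifted together, this remains a comparison of 3 libraries with 3. By adjusted p, no member was lower and 2 were higher (background 1.85% lower and 2.06% higher), and by unadjusted p 20 were lower and 4 higher (background 7.87% and 8.05%). The dividing-cell markers had a median of -0.63, and 10 of 52 were lower. In zmnlp3.1 against WT under KCl, the median of the members was 0.04, with 2 higher and 1 lower (background 2.58% and 6.81%). Here the dividing-cell markers did not go with the members. Their median was -0.21, with 1 of 52 higher and 2 lower.

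The 2 genes that were higher in both mutants than in WT under KCl are the erratic S4 gene and an S8 gene with few reads (gene_Zm00001d050924). The levels of the S8 gene were 5.04, 6.43 and 6.26 FPKM in the zmnrt1.1b libraries and 4.30, 3.44 and 8.17 FPKM in those of zmnlp3.1, against 0.520, 0.270 and 0.359 FPKM in WT, all under KCl. The log2 difference from WT was 3.66 in zmnrt1.1b (SE 0.88, adjusted p = 0.0285) and 3.42 in zmnlp3.1 (SE 0.88, adjusted p = 0.0230). These sizes depend on the value added before taking logs, and with 1 FPKM added they were 2.32 and 2.12. The call was lost in 6 of 26 alternative settings for zmnrt1.1b and in 4 for zmnlp3.1. Under KNO3 its WT libraries were uneven, with 3.97, 0.276 and 0 FPKM. These comparisons share the WT libraries. For zmnrt1.1b, the S4 gene lost its call under KCl in 5 of 18 settings that left out 1 library and in 5 of 7 others. For zmnlp3.1 it did so in 1 and 2.

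Under KNO3, 56 members were higher in zmnrt1.1b than in WT and none was lower by limma, against 7.90% and 9.66% of all tested genes, while 5 were lower at an unadjusted p under 0.05, against 17.2%. The median was 0.34 (-0.03 for all tested genes). Between zmnlp3.1 and WT, 81 members were higher and 4 lower, against 14.7% and 16.7%, with a median of 0.32 (0.00 for all tested genes). The WT libraries are common to the 2 comparisons, and both counts rest much on them. Without WT KNO3 replicate 4, 137 and 142 members were called in zmnrt1.1b and zmnlp3.1. Without WT KNO3 replicate 1 the counts were 10 and 45, and without replicate 3 they were 7 and 39. Leaving out zmnrt1.1b KNO3 replicate 2 or 4 gave 36 or 12, and leaving out zmnlp3.1 KNO3 replicate 2, 3 or 4 gave 138, 56 or 37. Of the dividing-cell markers, 8 of 52 were higher in zmnrt1.1b, while 21 were higher and 1 lower in zmnlp3.1. All 3 mutant libraries lay above all 3 WT libraries in 48 members (16.7%) for zmnrt1.1b and in 57 members (19.8%) for zmnlp3.1, against 14.7% and 22.2% of all tested genes, shares that stood close together. They lay below in 2 members (0.694%) for zmnrt1.1b and in 7 (2.43%) for zmnlp3.1, against 18.4% and 24.8%.

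The largest called difference between zmnrt1.1b and WT under KNO3 was 2.90, for the S8 gene gene_Zm00001d050924, whose uneven WT libraries are given above. This size, too, depends on the value added before taking logs. The call was lost in 4 of 18 settings that left out 1 library and in 2 of 7 others. Under KNO3, the L26-1 gene Zm00001d049904 differed from WT by 1.46 in zmnrt1.1b (adjusted p = 0.000207) and by 1.36 in zmnlp3.1 (adjusted p = 0.000204). The L5-1 gene Zm00001d027512 was higher by 0.84 in zmnrt1.1b. For a gene of L31 the levels were 50.9, 69.2 and 46.9 FPKM in the zmnrt1.1b libraries and 44.3, 60.3 and 68.2 FPKM in those of zmnlp3.1, against 22.2, 26.1 and 41.5 FPKM in WT (gene_Zm00001d051662). It was higher by 0.92 in zmnrt1.1b (SE 0.22, adjusted p = 0.00893) and by 0.97 in zmnlp3.1 (SE 0.22, adjusted p = 0.00368). An L39-1 gene had 33.3, 33.2 and 39.4 FPKM in zmnlp3.1 against 14.5, 15.4 and 23.6 FPKM in WT (Zm00001d035838), a difference of 1.01 (SE 0.18, adjusted p = 0.000774). An S3-1 gene with a low level was higher by 1.45 in zmnlp3.1 (Zm00001d006838, SE 0.40, adjusted p = 0.0113), with 5.70, 6.0 and 6.86 FPKM against 1.87, 1.63 and 3.43 FPKM in WT. The putative callose synthase (Zm00001d050344) and the weak S9-2 gene Zm00001d006923 were also called as higher in zmnlp3.1 than in WT.

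A gene of S8 set the mutants apart (gene_Zm00001d053635). It had 84.4, 106 and 74.9 FPKM in zmnrt1.1b under KNO3, against 53.3, 37.4 and 54.0 FPKM in WT, and was higher by 0.88 (SE 0.21, adjusted p = 0.00977). In zmnlp3.1 under KNO3 it had 32.7, 53.3 and 61.0 FPKM, and the difference between zmnlp3.1 and zmnrt1.1b was -0.89 (SE 0.21, adjusted p = 0.0110). Such differences between the mutants were few. Under KNO3, 3 members were higher and 6 lower in zmnlp3.1 than in zmnrt1.1b (background 6.72% and 8.63%), with a median of -0.02, and none passed when only these 2 groups were fitted. The count of 9 became 3 without zmnlp3.1 KNO3 replicate 2 or without zmnrt1.1b KNO3 replicate 2, 18 without zmnlp3.1 KNO3 replicate 3 and 1 without zmnlp3.1 KNO3 replicate 4. Under KCl, 7 were higher and 1 lower (background 2.60% and 7.01%), with a median of 0.25. The count of 8 became 0 without zmnlp3.1 KCl replicate 4, 2 without zmnlp3.1 KCl replicate 3 or zmnrt1.1b KCl replicate 3 or 4, 1 without zmnrt1.1b KCl replicate 2, and 13 without WT KNO3 replicate 4. Of the 4 members that were lower in zmnlp3.1 than in WT under KNO3, 2 are L18a-like genes (gene_Zm00001d009578 and Zm00001d011536) and the others a gene of S28 (gene_Zm00001d047697, -0.59, adjusted p = 0.0371) and another assembled S4 gene without a reference ID (-0.59, adjusted p = 0.0459). The S28 gene lost this call in 9 and the assembled S4 gene in 16 of 26 alternative settings.

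Whether the NO3- response itself differed between genotypes was tested by the difference of the responses. For zmnrt1.1b minus WT, the median over the members was 0.59 (-0.04 for all tested genes), and 265 of 288 values were positive, against 46.5% of all tested genes. By adjusted p, 4 members had a higher and 1 a lower response in zmnrt1.1b than in WT, against 0.542% and 0.969% of all tested genes. At an unadjusted p under 0.05 the numbers were 183 and 2, against 8.38% and 9.22%. The SE of such a difference had a median of 0.25, so for most single genes it was not established that the response differed from that of WT. Without WT KNO3 replicate 4, 44 members passed, and without WT KNO3 replicate 1, or without zmnrt1.1b KCl replicate 2, 1 did. For zmnlp3.1 minus WT, the median was 0.29 (0.01 for all tested genes), and 3 members had a higher and none a lower response, against 2.21% and 2.68%. At an unadjusted p under 0.05, 43 were higher and 1 lower, against 10.9% and 10.5%. Without WT KNO3 replicate 4, 16 passed, and without WT KNO3 replicate 1, zmnlp3.1 KNO3 replicate 4, or WT KCl replicate 1 or 3, none did. Both differences share the WT libraries. For zmnlp3.1 minus zmnrt1.1b, the median was -0.27 (0.01 for all tested genes). No member had a higher and 1 a lower response in zmnlp3.1 than in zmnrt1.1b, against 1.38% and 0.411% of all tested genes, and at an unadjusted p under 0.05 there were 1 and 26, against 8.66% and 5.47%. The lower one is the L29-2 gene Zm00001d009117 (-1.36, SE 0.33, adjusted p = 0.0481), and no member passed in most of the settings that left out 1 library.

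The L26-1 gene Zm00001d049904 passed in both, with 1.75 for zmnrt1.1b (SE 0.29, adjusted p = 0.0101) and 1.18 for zmnlp3.1 (SE 0.29, adjusted p = 0.0296). The zmnrt1.1b call held in all 26 alternative settings and the zmnlp3.1 call was lost in 7. A gene of S15a-5 passed for zmnrt1.1b, with 0.93 (gene_Zm00001d047262, SE 0.18, adjusted p = 0.0198). It had 34.0, 30.6 and 28.999 FPKM in zmnrt1.1b under KNO3 and 18.1, 20.1 and 18.7 FPKM under KCl. In WT it had 19.1, 18.8 and 20.8 FPKM under KNO3 and 25.95, 20.4 and 21.98 FPKM under KCl, so its WT groups overlapped. A gene of S3a passed with 0.95 (gene_Zm00001d048159, SE 0.21, adjusted p = 0.0389), and lost the call in 12 of 26 alternative settings. It had 49.4, 67.4 and 66.2 FPKM in zmnrt1.1b under KNO3 and 31.7, 35.6 and 33.4 FPKM under KCl, while in WT it had 41.9, 45.0 and 40.9 FPKM and 50.1, 51.3 and 37.0 FPKM.

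For zmnlp3.1, a gene of S29 passed with 0.81 (Zm00001d048787, SE 0.22, adjusted p = 0.0411) and the S10-1 gene Zm00001d025413 with 0.69 (SE 0.19, adjusted p = 0.0484). The S29 gene had 583, 460 and 545 FPKM in zmnlp3.1 under KNO3 and 325, 363 and 399 FPKM under KCl. In WT it had 316, 306 and 385 FPKM under KNO3 and 484, 365 and 369 FPKM under KCl. Both calls were fragile, since S29 lost it in 16 and S10-1 in 17 of 26 alternative settings.

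**Figure D5:**
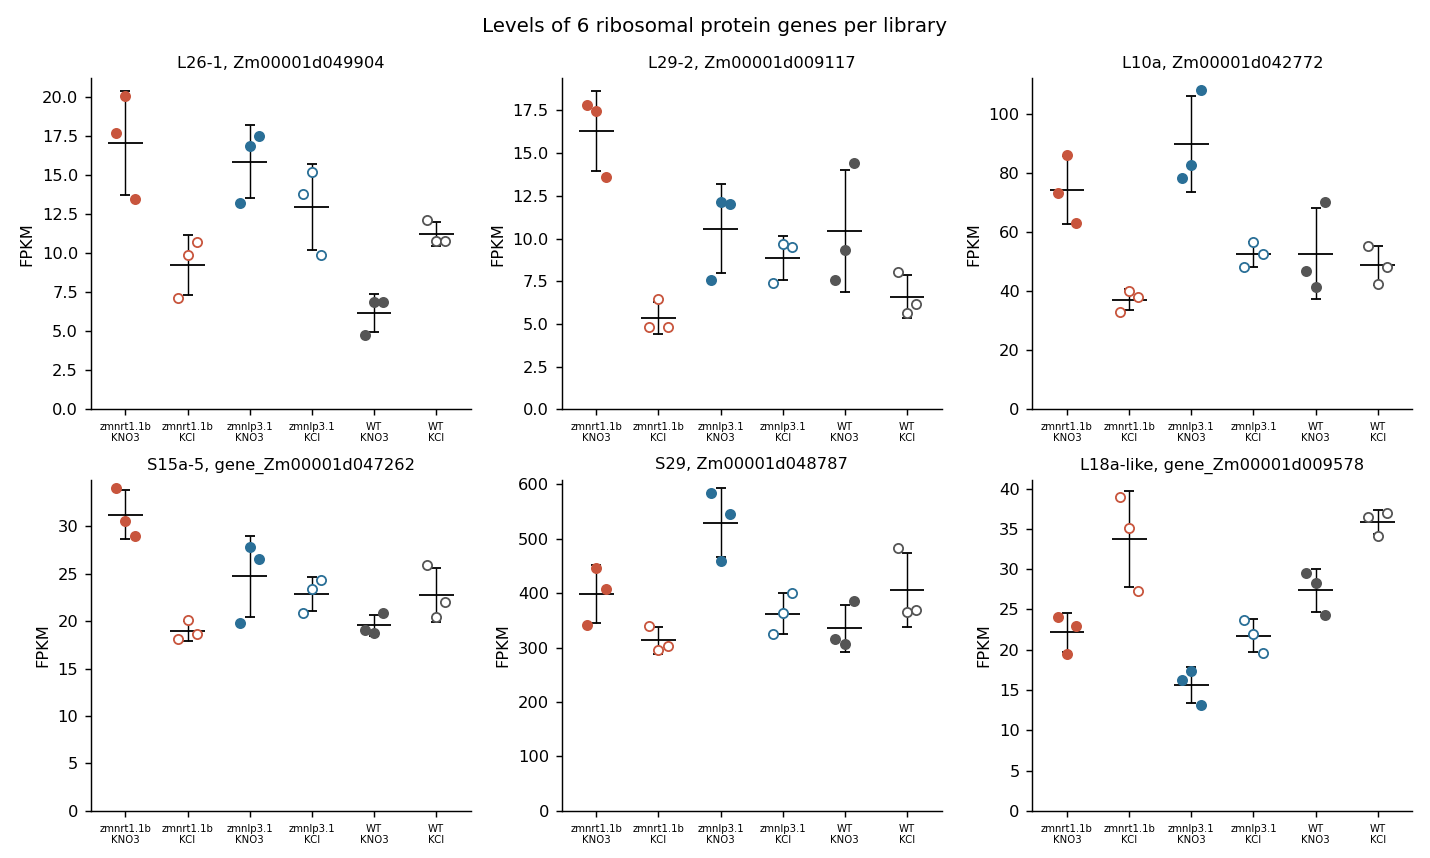
FPKM per library of 6 ribosomal protein genes by genotype and treatment, filled for KNO3 and open for KCl, with the group mean and SD. L26-1 is higher under KNO3 in zmnrt1.1b (13.5 to 20.1 against 7.11 to 10.7) and lower in WT (4.73 to 6.89 against 10.8 to 12.1), while the L18a-like libraries under KNO3 lie below those under KCl in all 3 genotypes.

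Other genes of the translation machinery were counted in the same way, where 6.81% of all tested genes rose in zmnrt1.1b, 6.88% in zmnlp3.1 and 6.43% in WT. Of the 14 tested acidic stalk proteins, which recruit translation factors and of which P0 is also a member, 9 rose in zmnrt1.1b and none fell, with a median of 0.66. In zmnlp3.1 1 rose (median 0.36) and in WT none changed (median 0.02). Of 21 elongation factor genes, 10 rose in zmnrt1.1b (median 0.46), 1 in zmnlp3.1 (median 0.18) and none in WT (median -0.03). Of 64 initiation factor genes, 4 rose in zmnrt1.1b (median 0.17), 7 rose and 1 fell in zmnlp3.1 (median 0.10), and 1 rose in WT (median 0.03). Ribosomes of plastids and mitochondria, described as 30S and 50S proteins, had 9 of 82 genes rising in zmnrt1.1b (median 0.32), 2 rising and 1 falling in zmnlp3.1 (median 0.13) and 3 rising in WT (median 0.07).

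Genes of ribosome biogenesis, which process ribosomal RNA and assemble the subunits, had 15 of 99 tested genes rising and 1 falling in zmnrt1.1b, with a median of 0.37. In zmnlp3.1, 8 rose and 1 fell (median 0.16), and in WT 1 rose (median 0.02), the zmnlp3.1 count being near its background of 6.88%. Between genotypes under KNO3, 44 of the 99 were higher in zmnlp3.1 than in WT and none was lower (median 0.40), against 14.7% and 16.7% of all tested genes, while 14 were higher and 1 lower in zmnrt1.1b (median 0.28), against 7.90% and 9.66%. Under KCl, 8 were higher in zmnlp3.1 than in WT (median 0.25, background 2.58%) and 1 was higher in zmnrt1.1b (median -0.04, background 2.06%).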

How the data were processed

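Total RNA of whole roots was sequenced as 150 bp paired-end reads, and per the labels and methods the authors mapped them to B73 RefGen_v4 with HISAT2 (v2.0.5), fastp and StringTie (v1.3.3b) also being named in the submitters' processing notes. The deposited FPKM values were computed by the authors for 47334 genes. The read counter and the scaling are not given in the sources used here. FPKM times gene length came out as whole multiples of a single step for 100% of values (tolerance 0.02), which gave 16955904 to 19116969 reads per library.

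Groups followed the labels. limma (v3.58.1, R v4.3.3) was fitted with a variance trend to log2(FPKM + 0.1) of all 18 libraries and 6 groups, with 12 residual degrees of freedom, two-sided p and Benjamini-Hochberg adjustment over 26011 genes. On this scale the changes of weak genes come out too small. The procedure was tested on simulated data. Related genes and markers were taken by protein description. The members and lists were chosen with earlier results of these data known, so lists are given as counts and medians, with no test of a list.

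Genes were named by a rule. It took the 5 highest means, the 3 smallest p in each response difference against WT, and the extremes of the 3 names with the widest levels. It also took the called members with the largest differences in each NO3- response and each comparison with WT. These were up to 10 in each direction for the WT response and 5 for the others. The genes of S27a and S21 and gene_Zm00001d012878 were named after their values were seen. The alternatives were a pseudocount of 1, a minimum of 0.1 FPKM or none, median-of-ratios scaling, voom on the recovered reads, a fit restricted to the compared groups, a block for the replicate number, and each library left out. Leaving out all libraries numbered 4 was chosen after seeing the data. The transcript levels of the mutated genes, promoter motifs and sequences were not analysed here. Python (v3.11.15), pandas (v2.3.3) and matplotlib (v3.10.9) were used.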

Additional observations from a re-analysis of the deposited data

Results flagged for a closer look

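The NO3- response of 8 ribosomal protein genes differed between genotypes by the test of the difference itself (limma, adjusted over all tested genes). For zmnrt1.1b minus WT these were L26-1 (Zm00001d049904, 1.75, adjusted p = 0.0101), S15a-5 (gene_Zm00001d047262, 0.93, adjusted p = 0.0198), S3a (gene_Zm00001d048159, 0.95, adjusted p = 0.0389), S21 (gene_Zm00001d012886, 1.02, adjusted p = 0.0419) and the erratic S4 gene (Zm00001d036575, -7.24, adjusted p = 0.0426), whose size depends on the value added before taking logs. The S21 gene, which the naming rule did not reach, had 95.1, 79.6 and 69.6 FPKM in zmnrt1.1b under KNO3 and 55.3, 46.3 and 38.9 FPKM under KCl. In WT it had 44.2, 43.8 and 54.7 FPKM under KNO3 and 64.8, 47.1 and 55.3 FPKM under KCl. For zmnlp3.1 minus WT the genes were L26-1 (Zm00001d049904, 1.18, adjusted p = 0.0296), S29 (Zm00001d048787, 0.81, adjusted p = 0.0411) and S10-1 (Zm00001d025413, 0.69, adjusted p = 0.0484). For zmnlp3.1 minus zmnrt1.1b, L29-2 had a lower response in zmnlp3.1 (Zm00001d009117, -1.36, adjusted p = 0.0481), with 7.57, 12.1 and 12.04 FPKM under KNO3 and 7.38, 9.67 and 9.52 FPKM under KCl in zmnlp3.1.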

How the results depend on the processing

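The median log2 differences of the members moved by less than the spread between libraries (SD 0.18) under the alternatives run, and 9 of 12 kept their sign. The 3 medians near 0 did not, with ranges of -0.18 to 0.09 for the WT response, -0.08 to 0.13 for zmnlp3.1 against WT under KCl and -0.11 to 0.11 for zmnlp3.1 against zmnrt1.1b under KNO3. Leaving out 1 of 3 libraries can shift a group mean by only part of that group's SD, so those settings could hardly exceed 0.18. The counts of called members moved more. With any library left out, the median ranged from 0.45 to 0.63 for the NO3- response of zmnrt1.1b and from 0.19 to 0.41 for that of zmnlp3.1. The cause of the changed counts was not tested. In the following, counts are of members called in either direction.

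With a pseudocount of 1 FPKM, 1 member was called in the WT response and 1 in zmnrt1.1b against WT under KCl. With a minimum of 0.1 FPKM, the response difference zmnlp3.1 minus WT had 1 call and zmnlp3.1 minus zmnrt1.1b had 0. With no minimum, and thus more genes tested, the calls were 17 in the zmnlp3.1 response, 1 in zmnrt1.1b against WT under KCl, 37 in the same pair under KNO3, 4 in zmnlp3.1 against zmnrt1.1b under KNO3, and 2, 1 and 0 in the response differences zmnrt1.1b minus WT, zmnlp3.1 minus WT and zmnlp3.1 minus zmnrt1.1b. With only the groups compared, and thus fewer samples, they were 4 in the WT response, 3 in the zmnlp3.1 response, 10 and 51 in zmnrt1.1b and zmnlp3.1 against WT under KNO3, 0 between the mutants under KNO3, and 10 and 0 in the response differences zmnrt1.1b minus WT and zmnlp3.1 minus zmnrt1.1b. With voom on the recovered reads they were 1 in zmnrt1.1b against WT under KCl, 94 and 151 in zmnrt1.1b and zmnlp3.1 against WT under KNO3, 13 between the mutants under KCl, and 8, 5 and 0 in the 3 response differences. Without all libraries numbered 4, a setting chosen after seeing the data, they were 55 and 12 in the zmnrt1.1b and zmnlp3.1 responses, 1 and 5 between the mutants under KCl and KNO3, and 6 and 0 in the response differences zmnlp3.1 minus WT and zmnlp3.1 minus zmnrt1.1b.

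With the replicate number as a block, 60 members were called in the zmnlp3.1 response, 1 in zmnrt1.1b against WT under KCl, 96 and 131 in zmnrt1.1b and zmnlp3.1 against WT under KNO3, 15 between the mutants under KNO3, and 98 and 23 in the response differences of zmnrt1.1b and zmnlp3.1 from WT. The deviations of same-numbered libraries of a genotype correlated by -0.07 to 0.27 over all tested genes (6 pairs). Over the members, the zmnrt1.1b pairs had 0.15 and 0.47, the zmnlp3.1 pairs -0.21 and -0.18, and the WT pairs 0.19 and 0.24. Neither set exceeded 0.1 in every pair, although over the members the zmnrt1.1b and WT pairs did. The labels name nothing that the numbers share, so the main fit has no block. These correlations were taken within a genotype only. Whether same-numbered libraries share a factor across genotypes was not tested, and they cannot show that none is shared.

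With 1 library left out, the calls ranged from 1 to 3 in the WT response, from 45 to 189 in the zmnrt1.1b response and from 3 to 53 in the zmnlp3.1 response. Against WT under KCl they ranged from 0 to 3 in zmnrt1.1b and from 1 to 5 in zmnlp3.1, and under KNO3 from 7 to 137 and from 37 to 142. Between the mutants they ranged from 0 to 13 under KCl and from 1 to 18 under KNO3. In the response differences they ranged from 1 to 44 for zmnrt1.1b minus WT, from 0 to 16 for zmnlp3.1 minus WT and from 0 to 2 for zmnlp3.1 minus zmnrt1.1b. Over the named genes, 164 of 1040 repeated calls lost the threshold, and none changed direction. With 3 libraries per group and a median SE of 0.18, single genes that differed by little could not be called, and weakly expressed members rest on few reads.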
